A study of Mus musculus with 6 samples.

Results

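The cells described here were macrophages of pancreatic tumors that carried Cx3cr1, the receptor of the chemokine fractalkine, and no transcript of the hemoglobin scavenger receptor Cd163. They were chosen by measured counts in 3 single-cell libraries, as unique molecular identifiers (UMIs, each standing for 1 captured transcript). A barcode entered with at least 1000 genes, at most 10% of UMIs from mitochondrial genes and at least 66.7% of its antibody-tag UMIs from a single hashtag. It also had to hold at least 3 of the macrophage genes Csf1r, C1qa, C1qb and Adgre1, at least 2 UMIs of Cx3cr1, none of Cd163, at most 2 of Arg1, at most 3 of Krt8 and Krt18 together, and none of the T and NK cell genes Cd3e, Ncr1 and Klrb1c. Barcodes that the authors had annotated as lymphocytes were left out. These criteria kept 1741 of 130444 deposited barcodes, with 1302 from PBS, 170 from mono-IL10 and 269 from IL10/2-Trikine tumors. Before the cuts on Cx3cr1, Cd163 and Arg1 they left 21633 macrophage-type barcodes.

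The tumors grew under the skin of C57BL/6 mice from 6694c2vTRP1 cells, a line derived from a mouse pancreatic cancer. The treatments were PBS, the monomeric cytokine mono-IL10 (26 µg per mouse) or IL10/2-Trikine (30.6 µg per mouse), a fusion that couples an IL-10 part to a part that binds the IL-2 receptor, by the intraperitoneal route. There were 2 doses given every other day from day 8, and tumors were taken on day 14. CD45+ cells of 5 hashtagged mice per treatment were pooled into 1 library, so that library and treatment cannot be told apart, and the sex of each mouse was not given in the sources used here.

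Tumor macrophages arise from blood monocytes and from cells that settled in the tissue before the tumor. Cx3cr1 marks monocyte-derived macrophages as well as microglia and other resident populations, and Cd163 marks perivascular and other resident-type macrophages. IL-10 binds a receptor of Il10ra and Il10rb and activates STAT3, which restrains inflammatory output and raises Fc receptors and scavenging functions in macrophages. The IL-2 receptor signals mainly through STAT5 in lymphocytes.

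Markers that the gate had not used are described first. Since the gate asks for macrophage genes, macrophage markers above the level of T cells follow from it and do not test the label. Apoe, the main lipid carrier protein of tissue macrophages, had a UMI in 99.5% of PBS, 99.4% of mono-IL10 and 100% of IL10/2-Trikine cells of the gate. Ms4a7, a membrane protein of mature macrophages, was found in 90.3%, 96.5% and 88.5%, and Hpgds, the hematopoietic prostaglandin D synthase, in 61.5%, 74.7% and 44.6%. The same genes had a UMI in annotated T cells at shares of 37.2%, 37.6% and 28.6% for Apoe, 4.7%, 4.3% and 5.7% for Ms4a7 and 3.1%, 5.3% and 2.0% for Hpgds, in the same order of treatments, at median depths of 2665, 3689 and 3136 UMIs per T cell. Macrophages of the gate had medians of 6234, 7036 and 3384 UMIs, so shares in the IL10/2-Trikine library were read at roughly the T cell depth and shares in the other libraries at more. The given markers were therefore found in these cells far above the free-RNA level.

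Microglia-type genes were detected more often than in T cells. Trem2, a lipid-sensing receptor, was detected in 74.6%, 83.5% and 63.9% of cells, Tmem119 in 31.6%, 44.1% and 24.9%, and the purinergic receptor P2ry12 in 23.4%, 28.8% and 13.4%. In T cells, with median depths of 2665, 3689 and 3136 UMIs against 6234, 7036 and 3384, these shares were 2.4%, 1.4% and 3.7% for Trem2, 0.39%, 0.61% and 0% for Tmem119 and 1.6%, 0.81% and 0.41% for P2ry12. Macrophages with at least 10 Arg1 UMIs (Arg1-high) had Trem2 in 75.4%, 78.7% and 63.8% and Tmem119 in 29.0%, 34.5% and 22.2% of cells. Those with at least 2 Cd163 UMIs (Cd163-positive) had P2ry12 in 32.1%, 33.3% and 15.2%. Trem2 thus lay on either side of the gated cells and P2ry12 above them, while Tmem119 was lower in Arg1-high cells in every library. Genes of settled macrophages were mixed. Lyve1 had a UMI in 0.9%, 0% and 0.4% of cells and Timd4 in 0.9%, 0% and 1.1%, while the mannose receptor Mrc1 was found in 96.7%, 98.8% and 97.0% and the folate receptor Folr2 in 31.8%, 46.5% and 25.3%. Mrc1 had a UMI in 5.1%, 8.7% and 8.2% and Folr2 in 0.39%, 1.6% and 1.2% of T cells. The chemokine Pf4 was found in 82.1 to 97.1% of the gated cells of each tested mouse, and its share in T cells was not taken. Ly6c2, the classical monocyte marker, was found in 5.2%, 1.8% and 8.2% of the cells, below its 27.1%, 38.3% and 20% in T cells, which also express it. Ccr2, another monocyte gene, was found in more of them. By tested mouse it had a UMI in 15.2 to 25.7% of PBS, 8.51 to 22.0% of mono-IL10 and 7.41 to 18.4% of IL10/2-Trikine cells. Dendritic cell genes stood at 1.6%, 2.4% and 3.0% for Flt3, which had no UMI in 255, 494 and 245 T cells. Zbtb46, at 2.6%, 1.2% and 1.1%, lay below its 6.7%, 5.3% and 4.5% in T cells, which cannot tell expression from background. These values are descriptions, because every gene of the gated cells accompanies the genes of the gate from cell to cell.

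**Figure D1:**
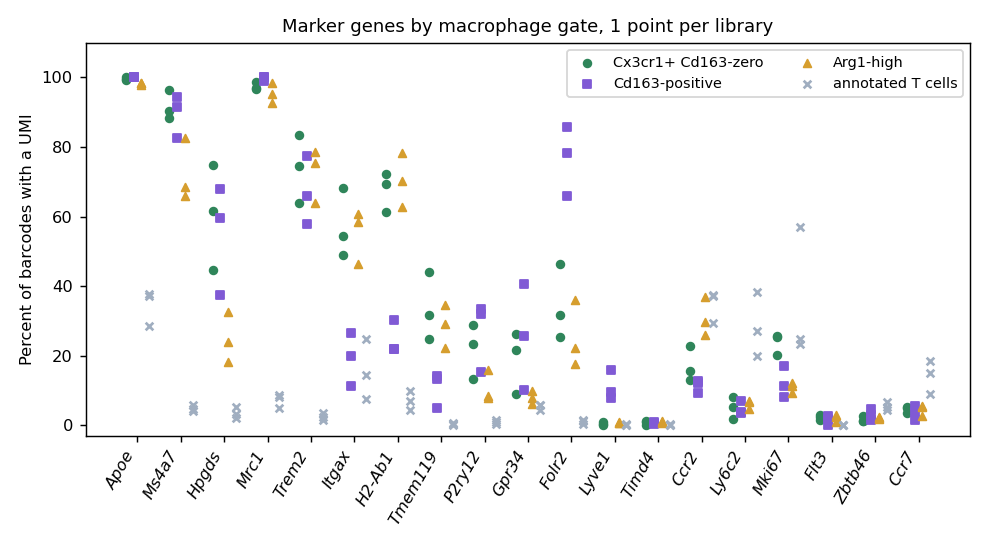
Percent of cells with at least 1 UMI of each marker gene, with 1 point per library for the Cx3cr1+ macrophages without Cd163, the Arg1-high macrophages, the Cd163-positive macrophages and the annotated T cells. Ms4a7 and Hpgds were detected in a larger share of the Cx3cr1+ macrophages than of Arg1-high macrophages in every library, while Folr2 was detected in more of the Cd163-positive macrophages.

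The edge of the gate was crowded. Among the 1741 cells, 750 held exactly 2 Cx3cr1 UMIs, the median was 3 and the highest 21, and 1402 barcodes with 1 Cx3cr1 UMI and 4328 with none met every other criterion. At the Arg1 limit, 372 cells held exactly 2 UMIs and 827 none, with 306 barcodes just outside at 3 UMIs. Only 48 barcodes were kept out by a single Cd163 UMI and 67 by more.

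The gate took a larger share of PBS macrophages than of macrophages after either cytokine. As a percentage of macrophage-type barcodes, the 5 PBS mice held 23.4, 16.5, 11.6, 10.7 and 11.4, the 5 mono-IL10 mice 2.17, 2.31, 3.45, 4.33 and 1.05, and the 5 IL10/2-Trikine mice 6.07, 1.72, 1.61, 7.75 and 1.54. The means were 14.7% ± 5.39 in PBS, 2.66% ± 1.26 in mono-IL10 mice and 3.74% ± 2.96 in IL10/2-Trikine mice (SD over the 5 mice of each), and no cytokine-treated mouse reached the lowest PBS mouse. With each barcode thinned to 3000 UMIs, the means were 11.5% ± 4.01, 2.09% ± 0.920 and 4.005% ± 2.90 (SD, n = 5 each). Since these shares come from the genes that define the gate, they were not tested.

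Each cut contributed to the shares. At least 2 Cx3cr1 UMIs were present in 30.6% ± 7.96 of PBS, 11.3% ± 3.84 of mono-IL10 and 7.71% ± 4.89 of IL10/2-Trikine macrophages (SD, n = 5 each). Cd163 was at 0 in 95.9% ± 2.22, 86.4% ± 4.14 and 89.1% ± 5.04 of them. Arg1, the arginase of wound-type macrophages, stood at 2 UMIs or fewer in 46.1% ± 5.68, 20.9% ± 2.00 and 39.9% ± 11.6. Macrophage-type barcodes had a mean over mice of the median depth of 5973, 6801 and 3099 UMIs, and thinning to 3000 UMIs turned the order of the cytokines for Cx3cr1, with at least 2 UMIs in 16.1% ± 4.46 of PBS, 3.58% ± 0.947 of mono-IL10 and 6.50% ± 3.69 of IL10/2-Trikine macrophages. It gave 61.8% ± 7.66, 37.2% ± 4.13 and 41.0% ± 14.6 for the Arg1 cut and 97.0% ± 1.91, 89.3% ± 4.38 and 89.5% ± 5.95 for Cd163 at 0. A lower share can reflect fewer such cells, less Cx3cr1 RNA per cell or more of the other macrophages, which cannot be told apart.

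**Figure D2:**
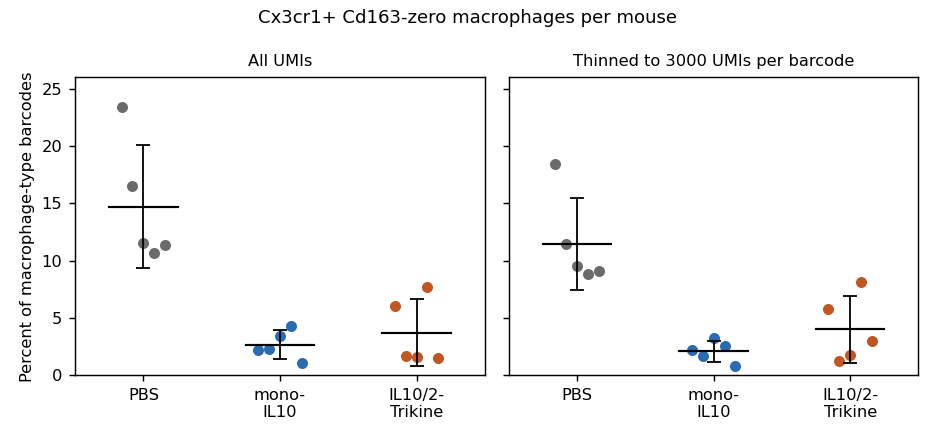
Share of macrophage-type barcodes that fell in the gate, in percent, with 1 point per mouse and bars and whiskers for the mean ± SD of 5 mice per treatment. The PBS mice lay at 10.7 to 23.4% and all 10 cytokine-treated mice below 10.7%.

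Expression was compared over mice, with the UMIs of the gated cells summed per mouse. A mouse needed at least 20 cells, which left PBS mice 1 to 5, mono-IL10 mice 1 to 4 and IL10/2-Trikine mice 1, 2 and 4, with 105 to 435, 28 to 47 and 27 to 179 cells each. Levels are given in CPM, the counts scaled to a common library size with TMM factors, and the test was edgeR's quasi-likelihood test with Benjamini-Hochberg adjustment over 7371 genes. It measures only the spread between the mice of 1 pool. The cuts of the gate are fixed UMI counts, while depth differed between the libraries. In the gated cells Arg1 was at 88.8 to 129 CPM in PBS, 114 to 168 in mono-IL10 and 198 to 264 in IL10/2-Trikine mice. Cx3cr1 was at 533 to 618, 395 to 502 and 642 to 745 CPM. Thinning, used below, kept the cells gated at full depth and so does not remove this. The part of the cuts in the differences was not tested. Between mono-IL10 and PBS 439 genes differed (5.96% of those tested), 279 higher (3.79%) and 160 lower (2.17%) after mono-IL10. Between IL10/2-Trikine and PBS 218 genes differed (2.96%), 109 in each direction (1.48%), and between IL10/2-Trikine and mono-IL10 139 (1.89%), 45 higher (0.611%) and 94 lower (1.28%) in IL10/2-Trikine. The PBS mice enter both comparisons with PBS. The median log2 fold change over all tested genes was -0.01, 0.00 and 0.01.

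The counts rest on few mice and cells, and on hashtag calls of mixed strength. Of the 1741 gated cells 552 had a hashtag share of at least 0.9. These were 31 of 385 in PBS mouse 1, 4 of 105 in PBS mouse 3 and 283 of 435 in PBS mouse 2. The mouse of the other cells is less certain. With a hashtag share of at least 0.9, 7 mice kept 20 cells, 4 of PBS, 1 of mono-IL10 and 2 of IL10/2-Trikine, and 16, 9 and 4 genes passed in the 3 comparisons, and with cells thinned to 3000 UMIs, which also left out IL10/2-Trikine mouse 2 with 12 cells, 202, 91 and 37 passed. Leaving out that mouse alone gave 132 and 49 for the comparisons with IL10/2-Trikine. The split of the calls between the cytokines also changed, to 26 higher and 23 lower without IL10/2-Trikine mouse 2, 30 and 31 without mouse 4 and 235 and 208 without the low-count filter. That of mono-IL10 against PBS turned to 241 higher and 419 lower without this filter. Among 43 named genes called for IL10/2-Trikine against PBS, 14 passed whichever mouse was left out, namely Clu, Spp1, Spon1, Fn1, Cdkn2a, Gdf15, Mgl2, Lyz2, S100a6, Fcgr4, Fabp5, Ctsl, Runx1 and Zeb2. The others lost the call without at least 1 mouse, most often IL10/2-Trikine mouse 1, which held most of the cells. Between the cytokines 12 of 27 passed throughout, Clu, Klrd1, Gzmb, S100a6, S100a4, Plac8, Ly6c2, Ptgs2, Cxcl16, Abca1, Zeb2 and Relb. For mono-IL10 against PBS 51 of 73 did, and among the genes described here Ms4a7, Maf, Olfml3, Npc2, Lipa, Cd9, Sbno2, Gadd45g, Ccl12, Ptgs2, Elmo1, Il2ra and Tpx2 did not.

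Traces of other cells' RNA moved with treatment in these sums. Over 9 epithelial tumor genes the summed level was 16.9 to 33.0 CPM in PBS, 9.78 to 28.6 in mono-IL10 and 61.2 to 104 in IL10/2-Trikine mice, with 2 to 5, 4 to 7 and 3 to 5 of the genes at 0. Over 8 NK cell genes it was 56.3 to 130, 9.23 to 67.4 and 274 to 360 CPM, and over 8 T cell genes 68.3 to 201, 0 to 96.2 and 169 to 313. Over 6 B cell genes it was 42.7 to 97.5, 6.15 to 19.6 and 93.95 to 114 CPM, so that the mono-IL10 mice overlapped neither group. Both genes tested from the B cell list, Ighm and Ebf1, were lower after mono-IL10 than in PBS (median log2 fold change -4.42) and than after IL10/2-Trikine. In Cd163-positive macrophages of 2 mono-IL10 mice Ebf1 was at 31.2 and 139 CPM, and the source of its RNA was not tested. Over 7 fibroblast genes the summed level was 24.7 to 775, 7.33 to 19.2 and 39.1 to 2413 CPM. The part of these cells' RNA in the differences was not tested for each gene. With the tumor RNA level as a further term of the edgeR fit, chosen after the data were seen, 309 genes differed between mono-IL10 and PBS, 0 between IL10/2-Trikine and PBS and 1 between the cytokines. That level did not overlap between the IL10/2-Trikine and the other mice, so the term is close to a term for that treatment.

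Genes of Fc gamma receptors, which bind the Fc part of IgG, were higher after mono-IL10. This held for 4 of 4 genes of the list, 3 receptors and a signaling chain, with a median log2 fold change of 0.81, and for Fcgr1, which was counted with the IL-10 and STAT3 genes. Fcgr4, an activating receptor, stood at 143, 186, 103, 154 and 124 CPM in PBS mice, at 446, 309, 321 and 326 in mono-IL10 mice and at 298, 226 and 302 in IL10/2-Trikine mice. Every cytokine-treated mouse lay above every PBS mouse. The log2 fold change was 1.35 ± 0.15 (SE, edgeR adjusted p = 4.7e-06) for mono-IL10 and 1.08 ± 0.18 (SE, adjusted p = 0.0014) for IL10/2-Trikine. Fcgr2b, the inhibitory receptor of the family, showed 990, 1240, 1128, 1046 and 1220 CPM in PBS, 1991, 1849, 1860 and 2115 in mono-IL10 and 1614, 1245 and 1516 in IL10/2-Trikine mice. Its groups did not overlap either, the IL10/2-Trikine mice lying between the others, with log2 fold changes of 0.88 ± 0.09 (SE, edgeR adjusted p = 3.5e-06) and 0.51 ± 0.11 (SE, adjusted p = 0.0085). Fcgr3 (0.74 ± 0.10, SE) and the shared signaling chain Fcer1g (0.63 ± 0.12, SE) were also higher after mono-IL10, and none of the 4 genes passed between the cytokines.

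Among 19 measured genes known to answer IL-10 and STAT3, 8 were higher and none lower after mono-IL10 (median log2 fold change 0.29). These were Socs3, Il4ra, Nfil3, Sbno2, Il1rn, Fcgr1, Ddit4 and Gadd45g. After IL10/2-Trikine 1 was higher and 3 were lower than in PBS. Il4ra, the IL-4 receptor chain, was at 186, 149, 166, 178 and 161 CPM in PBS, 366, 415, 401 and 339 in mono-IL10 and 357, 208 and 193 in IL10/2-Trikine mice. It was the gene of the list that passed for both cytokines, with log2 fold changes of 1.25 ± 0.13 (SE, edgeR adjusted p = 3.2e-06) and 0.84 ± 0.15 (SE, adjusted p = 0.0035). IL10/2-Trikine mouse 1 lay within the range of mono-IL10 for Il4ra and the other mice of its group just above PBS.

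Socs3, the feedback inhibitor of STAT3 signaling, was at 292, 384, 287, 298 and 318 CPM in PBS, 412, 350, 541 and 594 in mono-IL10 and 322, 160 and 295 in IL10/2-Trikine mice. The mono-IL10 mice reached the highest levels, with 1 of them inside the PBS range, and the IL10/2-Trikine mice lay at or under PBS. The log2 fold change was 0.68 ± 0.14 (SE, edgeR adjusted p = 0.0047) for mono-IL10 and -0.07 ± 0.18 (SE, adjusted p = 0.92) for IL10/2-Trikine, and Socs3 fell by 0.75 on the log2 scale from mono-IL10 to IL10/2-Trikine (adjusted p = 0.043). Ddit4, a stress-induced inhibitor of mTOR, was 1.75 ± 0.25 (SE) higher on the log2 scale after mono-IL10, the transcription factor Nfil3 0.90 ± 0.13 and the IL-1 receptor antagonist Il1rn 0.74 ± 0.14. Cebpb (-0.47), the mRNA decay factor Zfp36 (-0.45) and the metal transporter Slc11a1 (-0.96) were the 3 lower genes after IL10/2-Trikine. Of the 19 genes, 18 had a lower estimate in IL10/2-Trikine than in mono-IL10 (median -0.46), and 3 passed.

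The promoters of these genes were searched for TTCNNNGAA, the core of the element that STAT proteins bind, which reads the same on both strands. RefSeq windows of the mouse build GRCm38.p6 were used, one window for each gene, reaching from 250 bases before the gene's start into its first bases, while the deposited counts rest on GRCm39. The motif was present in 8.47% of 27025 promoters, in 4 of the 18 list genes with a window (22.2%) and in 3 of the 8 that were higher after mono-IL10 (37.5%). The remaining list gene with the motif was Zfp36, 17 bases before its start. Zfp36 was not called for mono-IL10 and was lower after IL10/2-Trikine than in PBS and than after mono-IL10. The 250 bases before the start are shown for the 3 genes higher after mono-IL10, chosen after their values were seen, with the motif in capitals. They lie on the minus strand at chr11:117969367-117969616 (Socs3), chr3:96293970-96294219 (Fcgr1) and chr10:80102703-80102952 (Sbno2), and each reads 5′ to 3′ toward the gene.
Socs3: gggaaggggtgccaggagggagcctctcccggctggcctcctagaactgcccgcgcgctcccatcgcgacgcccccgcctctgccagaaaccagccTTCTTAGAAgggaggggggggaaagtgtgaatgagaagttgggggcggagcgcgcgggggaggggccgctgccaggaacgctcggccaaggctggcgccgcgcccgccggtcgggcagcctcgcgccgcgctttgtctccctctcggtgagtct
Fcgr1: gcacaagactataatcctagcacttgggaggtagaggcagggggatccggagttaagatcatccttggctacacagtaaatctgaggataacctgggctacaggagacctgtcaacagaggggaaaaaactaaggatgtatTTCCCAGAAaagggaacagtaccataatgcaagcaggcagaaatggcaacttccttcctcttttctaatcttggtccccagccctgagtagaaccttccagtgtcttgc
Sbno2: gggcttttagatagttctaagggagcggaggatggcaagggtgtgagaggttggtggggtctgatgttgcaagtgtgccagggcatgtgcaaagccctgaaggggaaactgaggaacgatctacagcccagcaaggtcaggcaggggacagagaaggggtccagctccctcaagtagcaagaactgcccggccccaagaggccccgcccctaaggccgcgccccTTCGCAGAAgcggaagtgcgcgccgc
The motif began 154 bases before the start of Socs3, 109 before that of Fcgr1, the high-affinity IgG receptor, and 26 before that of Sbno2, a transcriptional corepressor. Fcgr1 and Sbno2 were higher by 0.63 ± 0.14 and 0.57 ± 0.15 (SE) on the log2 scale after mono-IL10. A match of letters is a description and not a bound site.

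Receptor genes were also measured. Il10ra was at 137 to 204 CPM in mono-IL10 and 141 to 196 CPM in PBS mice, against 83.5 to 118 CPM in IL10/2-Trikine mice, whose range lay below the others without passing the test (log2 fold change against PBS -0.55 ± 0.18, SE, edgeR adjusted p = 0.11). Il10rb, the shared chain of the receptor, and Stat3 did not pass in any comparison. Il2rb, the signaling chain of the IL-2 receptor, was at 21.9 to 51.0 CPM in PBS, 0 to 26.5 in mono-IL10 and 28.3 to 71.6 in IL10/2-Trikine mice, where RNA of NK and T cells was also highest. Among 19 measured cytokine receptor and JAK-STAT genes, 1 was lower after mono-IL10 (Il2ra) and none higher, a share near the 5.96% of all genes.

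Genes of protein breakdown in lysosomes were higher after mono-IL10. This was so for 8 of 17 hydrolase genes and none was lower (median 0.40). Ctsl, the endopeptidase cathepsin L, was at 496, 523, 609, 464 and 498 CPM in PBS, 1129, 1145, 1276 and 968 in mono-IL10 and 843, 651 and 803 in IL10/2-Trikine mice. The ranges were separate, with IL10/2-Trikine between the others, and the log2 fold changes against PBS were 1.21 ± 0.11 (SE, edgeR adjusted p = 3.9e-07) and 0.71 ± 0.12 (SE, adjusted p = 0.002). The other called members with the smallest adjusted p were Ctsc, which activates granule proteases (0.80 ± 0.09), the carboxypeptidase Ctsa (0.82 ± 0.10) and Ctsb (0.58 ± 0.08). After IL10/2-Trikine 3 genes of the list were higher and 1 was lower than in PBS. All 17 had a lower estimate than in mono-IL10 (median -0.37), with Ctsb and Lamp1 past the threshold.

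Complement genes were also higher after mono-IL10, 4 of 10 with none lower. C4b, which becomes part of the classical convertase, was at 13.3, 12.3, 20.9, 11.2 and 8.06 CPM in PBS, 114, 40.5, 70.1 and 42.4 in mono-IL10 and 44.8, 28.3 and 38.5 in IL10/2-Trikine mice. Both cytokine groups lay above all PBS mice, with log2 fold changes of 2.46 ± 0.30 (SE) and 1.78 ± 0.38 (SE, edgeR adjusted p = 0.012 for the latter). Also higher after mono-IL10 were C1qc of the first complement component (0.57) and the anaphylatoxin receptor C5ar1 (0.52).

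Chemokines moved in opposite directions. Ccl8, a ligand of CC receptors on monocytes and T cells, was at 1544, 1191, 1451, 1209 and 2030 CPM in PBS, 8210, 3299, 4001 and 6044 in mono-IL10 and 2611, 2632 and 3096 in IL10/2-Trikine mice. The 3 groups did not overlap, with log2 fold changes against PBS of 1.94 ± 0.20 (SE, edgeR adjusted p = 2.1e-06) and 1.04 ± 0.22 (SE, adjusted p = 0.0094), and Ccl8 fell by 0.91 from mono-IL10 to IL10/2-Trikine (adjusted p = 0.047). Ccl17, a ligand of the T cell receptor Ccr4 and a product of dendritic cells and alternatively activated macrophages, was at 85.4, 130, 61.3, 71.0 and 27.8 CPM in PBS, 0, 15.2, 0 and 10.6 in mono-IL10 and 41.8, 9.43 and 116 in IL10/2-Trikine mice. It was lower after mono-IL10 by 3.58 ± 0.73 (SE) on the log2 scale (edgeR log2 fold change -3.58, adjusted p = 0.0037), and the IL10/2-Trikine mice spread across both other groups. Cxcl16 (0.57) and Ccl12 (0.91) were higher after mono-IL10.

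Fabp5, a fatty acid carrier, was higher after both cytokines. Its levels were 848, 1407, 1001, 1025 and 1196 CPM in PBS, 2766, 2534, 2532 and 2993 in mono-IL10 and 2302, 1349 and 2113 in IL10/2-Trikine mice, for log2 fold changes of 1.39 and 0.95. Spp1, the matrix protein osteopontin, was at 217 to 331 CPM in PBS, 916, 299, 741 and 469 in mono-IL10 and 1841, 1038 and 983 in IL10/2-Trikine mice. It was highest after IL10/2-Trikine, 2.33 ± 0.23 (SE) above PBS on the log2 scale (edgeR adjusted p = 4.6e-06) and 1.16 above mono-IL10. Of 16 lipid-handling genes, 4 were higher (Fabp5, the cholesterol carrier Npc2, Spp1 and the tetraspanin Cd63) and 3 lower (Gpnmb, the lysosomal lipase Lipa and Cd9) after mono-IL10, so the list had no single direction. The fatty acid receptor Cd36 was lower after both, with log2 fold changes of -2.68 and -2.23.

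**Figure D3:**
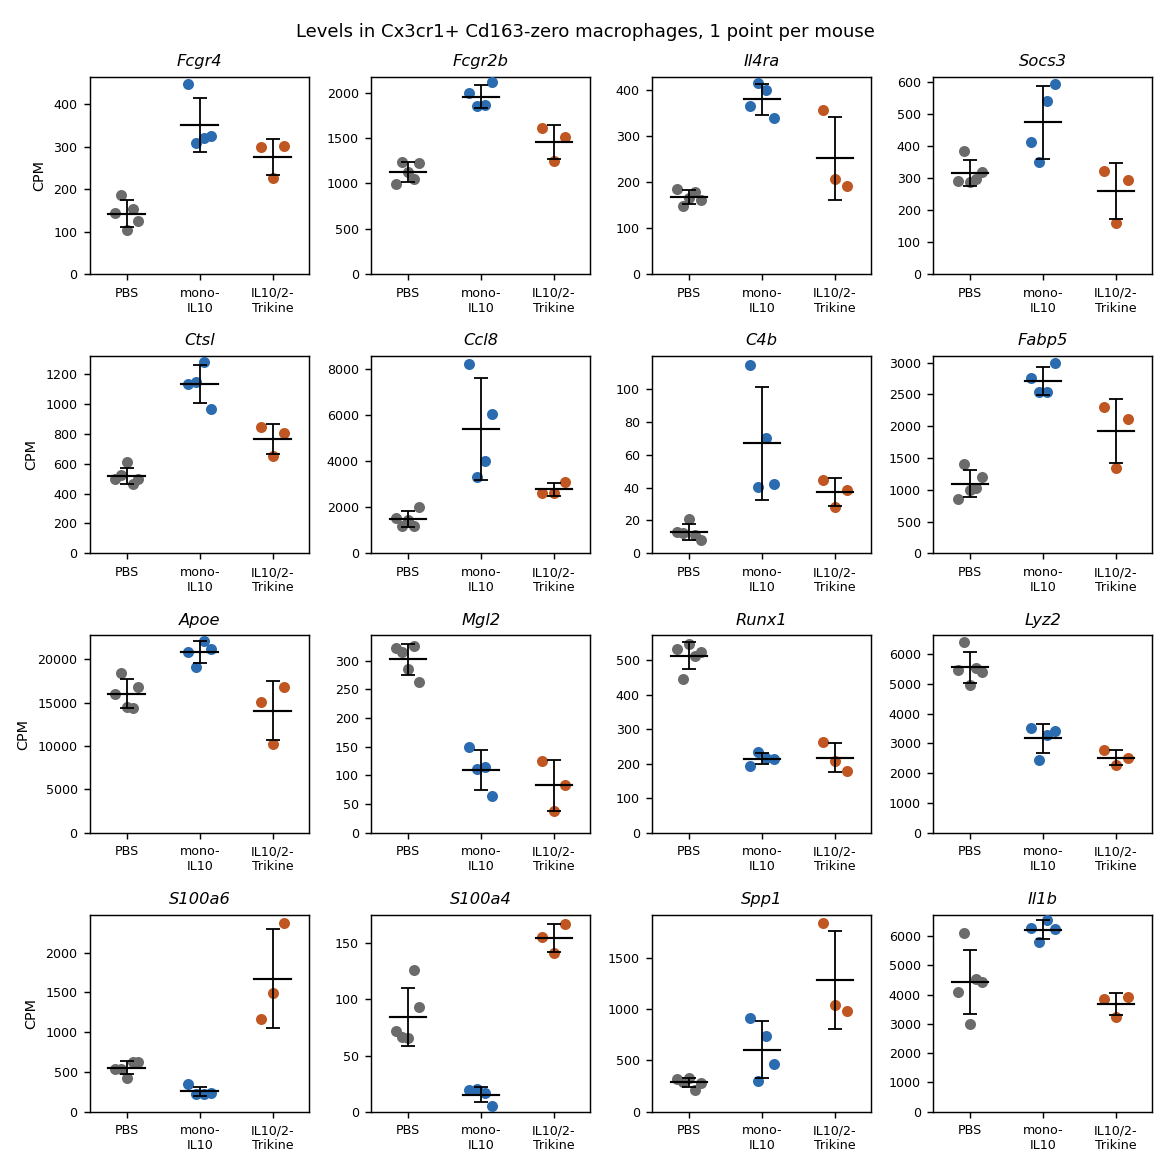
Levels of selected genes in the Cx3cr1+ macrophages without Cd163, in TMM-scaled CPM, with 1 point per mouse for 5 PBS, 4 mono-IL10 and 3 IL10/2-Trikine mice and bars and whiskers for the mean ± SD. Fcgr4 lay at 103 to 186 CPM in PBS and 226 to 446 CPM in all cytokine-treated mice.

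Macrophage identity genes were mixed. After mono-IL10 6 of 15 were higher, among them Ms4a7, Apoe, Tmem119 and Fcrls, and 3 were lower, Maf, Olfml3 and Lyz2. Tmem119 was at 57.3 to 78.3 CPM in PBS, 103, 142, 177 and 122 in mono-IL10 and 71.6, 75.5 and 116 in IL10/2-Trikine mice, and its log2 fold change for mono-IL10 was 1.06 ± 0.17 (SE, edgeR adjusted p = 0.00038). Ms4a7 was higher by 0.43 ± 0.12 (SE, adjusted p = 0.027), while Hpgds missed the threshold (0.52 ± 0.16, SE, adjusted p = 0.064). Lyz2, the macrophage lysozyme, was at 5481, 6417, 4965, 5518 and 5400 CPM in PBS, 3514, 2427, 3293 and 3420 in mono-IL10 and 2784, 2274 and 2505 in IL10/2-Trikine mice. Both cytokine groups lay under all PBS mice, by log2 fold changes of -0.73 ± 0.10 (SE) and -1.01 ± 0.12 (SE, edgeR adjusted p = 3.1e-05). Apoe ran from 14414 to 18430 CPM in PBS, 19128 to 22169 in mono-IL10 and 10237 to 16859 in IL10/2-Trikine mice, higher after mono-IL10 (0.46, edgeR adjusted p = 0.01) and lower in IL10/2-Trikine than in mono-IL10 (-0.52, adjusted p = 0.03).

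Runx1, a transcription factor of blood lineages, was among the genes lower after both cytokines. It was at 534, 446, 549, 514 and 526 CPM in PBS, 195, 233, 217 and 215 in mono-IL10 and 263, 208 and 180 in IL10/2-Trikine mice. The cytokine groups overlapped each other and lay well under PBS, with log2 fold changes of -1.18 ± 0.12 (SE, edgeR adjusted p = 1.5e-06) and -1.06 ± 0.13 (SE, adjusted p = 0.00011). Mgl2, the lectin CD301b of alternatively activated cells, was at 263 to 326 CPM in PBS, 63.6 to 149 in mono-IL10 and 37.7 to 125 in IL10/2-Trikine mice, with log2 fold changes of -1.43 ± 0.19 and -1.48 ± 0.22 (SE). Clec12a, an inhibitory lectin of myeloid cells, was at 78.8 to 84.0 CPM in PBS, 7.63 to 20.04 in mono-IL10 and 6.42 to 56.6 in IL10/2-Trikine mice. Of 19 transcription factor and growth receptor genes, 4 were lower after mono-IL10 and 5 after IL10/2-Trikine, and none was higher, among them the TGF-beta receptor Tgfbr1 (-0.53 and -0.71).

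Monocyte-type genes separated the cytokines. Of 10 measured, 1 was higher and 4 were lower after mono-IL10 (median -0.85), 3 were higher after IL10/2-Trikine (median 0.65), and 4 were higher in IL10/2-Trikine than in mono-IL10 with none lower. S100a6, a calcium-binding protein, was at 542, 534, 426, 628 and 622 CPM in PBS, 343, 223, 220 and 236 in mono-IL10 and 1165, 1491 and 2370 in IL10/2-Trikine mice. The 3 groups did not overlap, and the log2 fold changes were -1.03 ± 0.20 (SE, edgeR adjusted p = 0.0025) for mono-IL10 and 1.72 ± 0.19 (SE, adjusted p = 1.8e-05) for IL10/2-Trikine against PBS, and 2.75 ± 0.22 (SE, adjusted p = 1.5e-07) between the cytokines. Its relative S100a4 was at 65.5 to 126 CPM in PBS, 5.30 to 20.3 in mono-IL10 and 142 to 167 in IL10/2-Trikine mice, again with no overlap. Ly6c2 was at 12.6 to 55.1 CPM in PBS, at 0 in 2 of 4 mono-IL10 mice and at most 5.07 in the others, and at 51.4 to 84.9 in IL10/2-Trikine mice. S100a6, S100a4 and Ly6c2 are also expressed by lymphocytes. The summed NK cell level given above was higher in the IL10/2-Trikine mice than in all others, the B cell level was lower in the mono-IL10 mice than in all others, and all 6 T cell genes tested had a negative estimate after mono-IL10 (median -1.01) with none passing. The tumor epithelial level was also apart in IL10/2-Trikine mice 1, 2 and 4, at 61.2, 93.2 and 104 CPM. With the tumor RNA term none of the named calls for IL10/2-Trikine, against PBS or mono-IL10, was kept. That term is close to a term for the treatment, so it cannot tell tumor RNA from the treatment. The part of lymphocyte or tumor RNA in the calls of either cytokine was not tested.

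The matrix protein fibronectin, Fn1, was the 1 gene of that list called higher after mono-IL10, where 3 of the 10 estimates were positive. It was at 553, 273, 546, 269 and 526 CPM in PBS, 1728, 1621, 1646 and 1023 in mono-IL10 and 1207, 1934 and 1130 in IL10/2-Trikine mice. Both cytokine groups lay above all PBS mice, by 1.88 ± 0.22 and 1.83 ± 0.24 (SE) on the log2 scale. Spon1, another matrix protein, was at 11.1 to 30.1 CPM in PBS, 83.9 to 106 in mono-IL10 and 70.6 to 104 in IL10/2-Trikine mice, with log2 fold changes of 2.28 and 2.26. Fibroblast RNA was lowest in the mono-IL10 mice and highest in IL10/2-Trikine mouse 2 (2413 CPM), and its part in these 2 genes was not tested.

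Of 13 inflammatory genes measured, 2 were higher and none lower after mono-IL10, and 1 was lower and none higher after IL10/2-Trikine, where 11 estimates were negative (median -0.40). The shares called over all genes were 5.96% for mono-IL10 and 2.96% for IL10/2-Trikine. Il1b was at 4104, 6099, 3011, 4522 and 4436 CPM in PBS, 6291, 5802, 6559 and 6245 in mono-IL10 and 3866, 3246 and 3918 in IL10/2-Trikine mice. The mono-IL10 mice overlapped 1 PBS mouse, and Il1b was higher there by 0.57 (edgeR adjusted p = 0.0083) and lower in IL10/2-Trikine than in mono-IL10 by a log2 fold change of -0.71 (adjusted p = 0.016). Ptgs2, the inducible cyclooxygenase, was at 224 to 371 CPM in PBS, 408 to 512 in mono-IL10 and 103 to 260 in IL10/2-Trikine mice. It was 0.65 higher on the log2 scale after mono-IL10 and lower in IL10/2-Trikine than in mono-IL10 by a log2 fold change of -1.25. Il1a, the gene lower after IL10/2-Trikine, was at 243 to 320 CPM in PBS, 147 to 286 in mono-IL10 and 123 to 149 in IL10/2-Trikine mice (log2 fold change against PBS -0.88 ± 0.18, SE, edgeR adjusted p = 0.0094). In all, 4 of the 13 genes were lower in IL10/2-Trikine than in mono-IL10, including the inflammasome sensor Nlrp3 (-0.75) and the T cell costimulator Tnfsf9 (-1.44).

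For antigen presentation and interferon genes the counts were near the shares over all genes, 5.96% for mono-IL10, 2.96% for IL10/2-Trikine and 1.89% between the cytokines, at which lists of this size hold about 0 or 1 call. None of 8 MHC class II genes passed for mono-IL10 (median 0.12), for IL10/2-Trikine (median -0.48) or between the cytokines (median -0.65), and the mice of a group spread widely. H2-Aa was at 1084 to 4067 CPM in PBS, 1890 to 4027 in mono-IL10 and 887 to 2319 in IL10/2-Trikine mice, and Cd74, the invariant chain, at 3160 to 9372, 5243 to 9015 and 2378 to 5504. None of 17 MHC class I and peptide loading genes passed against PBS, nor any of 14 type I interferon-stimulated genes, and 1 of 18 interferon-gamma genes was higher after mono-IL10 (Fgl2, 0.69). Isg15 was lower in IL10/2-Trikine than in mono-IL10 (log2 fold change -1.73). None of 14 ribosomal genes passed for mono-IL10 or IL10/2-Trikine against PBS.

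Smaller groups completed the picture for mono-IL10. Over all genes 5.96% were called for mono-IL10 and 2.96% for IL10/2-Trikine, so lists of this size hold about 0 or 1 call. Pirb, an inhibitory receptor for MHC class I, was higher by 1.48 on the log2 scale after mono-IL10 and by 1.12 after IL10/2-Trikine, the 1 called gene of 10 checkpoint ligands and inhibitory receptors for mono-IL10. Of 17 hypoxia and glycolysis genes 2 were higher after mono-IL10, among them Ndrg1 (1.51), and none passed after IL10/2-Trikine. Of 11 genes for the uptake of dying cells 1 was higher, the integrin Itgb5 (0.68), and 2 were lower, Axl (-0.76) and the engulfment adaptor Elmo1 (-0.56). Among the genes of largest separate difference outside the lists, the growth factor Pgf (1.76), the matrix protein Ecm1 (1.70) and the binding protein Igfbp6 (2.23) were higher after mono-IL10. The actin-binding protein Tmsb10 (-1.70), the adhesion receptor Adgre5 (-1.91), the cytoskeletal protein Lsp1 (-1.78) and the growth factor Areg (-2.21) were lower. None of 14 immediate early and heat shock genes passed for mono-IL10, and Jun was lower after IL10/2-Trikine (-0.74).

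The largest separate differences of IL10/2-Trikine from PBS included genes of other cell types. Clu, the chaperone clusterin, was at 13.4 to 37.4 CPM in PBS, 3.34 to 34.3 in mono-IL10 and 185, 123 and 270 in IL10/2-Trikine mice, 2.88 ± 0.27 (SE, edgeR adjusted p = 4.6e-06) above PBS on the log2 scale. The cytotoxic granule protease Gzma was at 1.56 to 17.7 CPM in PBS, 5.07 in 1 and 0 in 3 mono-IL10 mice, and 136, 84.9 and 25.7 in IL10/2-Trikine mice. Gzma (log2 fold change 3.49), Nkg7 (1.91) and Klrd1 (1.76) are NK and T cell genes, 3 of the 4 measured from the NK cell list, and Clu and the cell cycle inhibitor Cdkn2a (3.06) can come from tumor cells. Their source was not tested. Zeb2, a transcription factor of macrophage identity, was at 1147 to 1336 CPM in PBS, 1181 to 1331 in mono-IL10 and 861, 764 and 674 in IL10/2-Trikine mice, lower by log2 fold changes of -0.58 from PBS and -0.64 from mono-IL10 (edgeR adjusted p = 0.0044 for the latter).

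**Figure D4:**
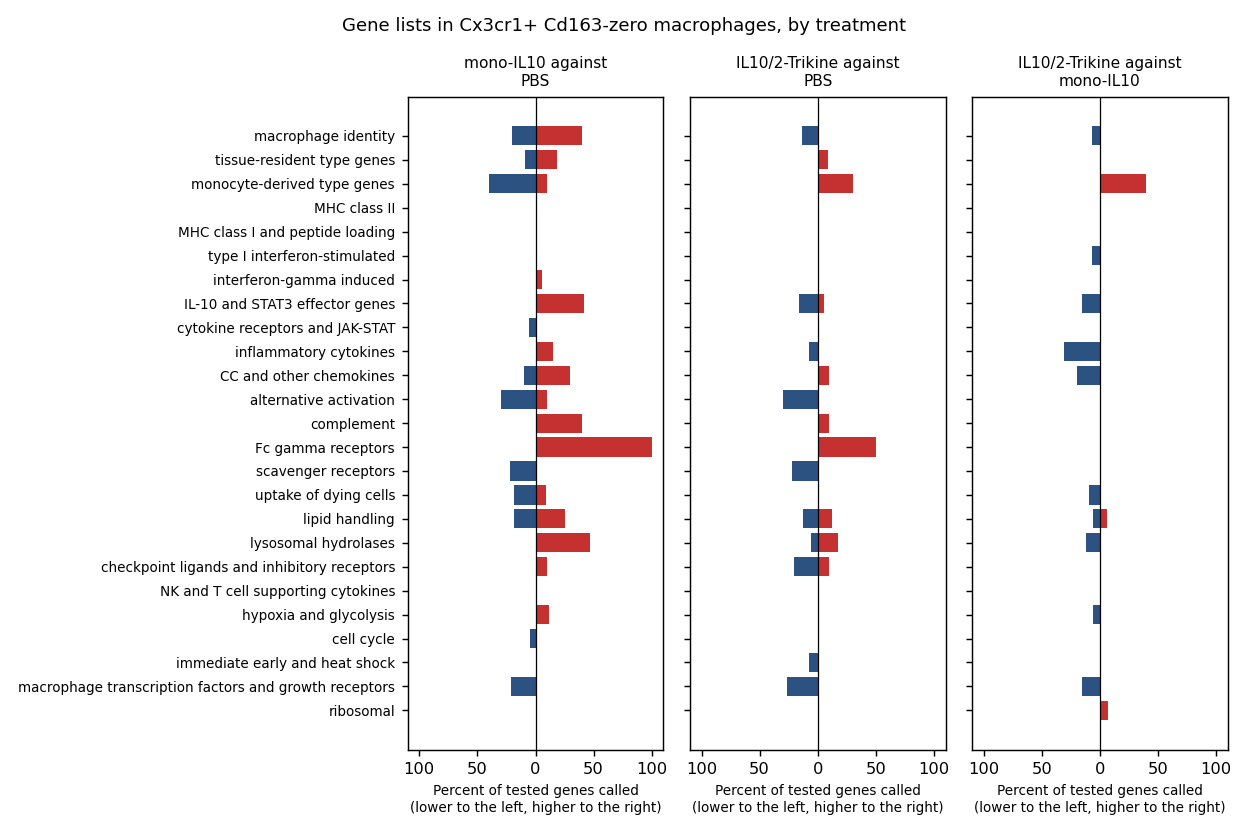
Percent of the tested genes of each list that were higher (red, to the right) or lower (blue, to the left) in the 3 treatment comparisons of the Cx3cr1+ macrophages without Cd163, by edgeR at an adjusted p under 0.05. All 4 genes of the Fc gamma receptor list were higher after mono-IL10 and no MHC class II gene passed.

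Cells with cell cycle transcripts were compared as a share of the gated cells. After thinning to 3000 UMIs, a cell counted with at least 2 UMIs of 20 cell cycle genes. By mouse they were 46.4, 33.0, 51.6, 36.7 and 40.5% in PBS, 22.0, 33.3, 26.3 and 31.8% in mono-IL10 and 42.0, 50 and 40% in IL10/2-Trikine mice. The mono-IL10 mice were lowest apart from an overlap with 1 PBS mouse, and the IL10/2-Trikine mice lay within the PBS range. Means were 41.7% ± 7.45 (SD, n = 5), 28.4% ± 5.23 (SD, n = 4) and 44.0% ± 5.30 (SD, n = 3). The difference of mono-IL10 from PBS was -13.3 percentage points (exact two-sided permutation test, p = 0.0238, adjusted p = 0.0429 over 3 comparisons), and that of IL10/2-Trikine from mono-IL10 15.6 points (exact permutation p = 0.0286, the smallest this design allows, adjusted p = 0.0429). IL10/2-Trikine and PBS differed by 2.34 points (exact permutation p = 0.661).

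These calls depended on the thinning. The IL10/2-Trikine shares rest on the 112 of 179, 12 of 27 and 25 of 42 cells that reached 3000 UMIs. Those of mono-IL10 rest on 41 of 41, 27 of 28, 38 of 41 and 44 of 47 cells. PBS mice kept 360 of 385, 415 of 435, 93 of 105, 166 of 186 and 163 of 191. The largest shares were thus left out in the IL10/2-Trikine mice, and the part of this in the differences was not tested. With 1 mouse left out the difference of mono-IL10 from PBS stayed at -15.5 to -10.8 points and that of IL10/2-Trikine from mono-IL10 at 12.6 to 17.6 points. Neither call passed then, other than without PBS mouse 2 (exact permutation tests, adjusted p from 0.0714 to 0.2), but without a cytokine mouse the smallest p between the cytokines is 0.0667 or 0.1, so those tests say nothing of single mice. Without thinning, PBS mice held 59.98% ± 7.36, mono-IL10 mice 54.4% ± 7.19 and IL10/2-Trikine mice 46.9% ± 4.38 (SD), and no difference passed. The difference of IL10/2-Trikine from mono-IL10 then had the opposite sign, at -7.46 points. With at least 1 cell cycle UMI in place of 2, neither comparison with mono-IL10 passed (exact permutation test, adjusted p = 0.0857 for each). In the edgeR fit all 20 cell cycle genes had a lower estimate after mono-IL10 (median log2 fold change -0.48), and 1 passed, the spindle factor Tpx2 (-1.44). A count of 1 in 20 is near the shares over all genes, 5.96% called and 2.17% called lower.

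The same mice allowed a comparison with other macrophages of the tumor. Cd163-positive macrophages had at least 2 Cd163 UMIs and at most 2 of Arg1 (444 cells), and 7 mice held at least 20 cells of both kinds. With the mouse as a block, 783 of 5503 genes differed (14.2%), 403 higher (7.32%) and 380 lower (6.91%) in the Cx3cr1+ macrophages. Genes that accompany Cd163, Arg1 or Cx3cr1 from cell to cell differ with such a gate by construction, and the genes of the gate themselves were left out of the counts. Markers of other cells moved with this comparison, with all 3 fibroblast genes tested, Col1a1, Col1a2 and Col3a1, higher in the Cx3cr1+ macrophages (median 2.94, Col1a1 at 0 to 629 CPM against 0 to 67.0), and their part was not tested. Median depths of the Cd163-positive cells were 5574, 5749 and 2842 UMIs in PBS, mono-IL10 and IL10/2-Trikine.

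MHC class II genes, which present peptides to CD4+ T cells, were higher in the Cx3cr1+ macrophages, 6 of 6 measured (median 2.19). H2-Aa ran from 857 to 3729 CPM there and from 87.7 to 850 CPM in Cd163-positive cells, higher in 7 of 7 mice (log2 fold change 2.21 ± 0.23, SE, edgeR adjusted p = 3.5e-06). Tmem119 was at 52.6 to 129 against 0 to 34.8 CPM (2.06 ± 0.32, SE), the integrin Itgax at 164 to 273 against 20.9 to 108 (1.94 ± 0.21, SE) and Il1b at 3136 to 5972 against 1403 to 2363 (1.18 ± 0.16, SE), with no overlap in these 3. Cxcl9, an attractant of T cells, was 2.07 ± 0.20 (SE) higher and Axl, a receptor for dying cells, 1.60 ± 0.20 higher. Cell cycle genes were higher for 3 of 15 and lower for none, among them Mki67 (1.24 ± 0.30, SE, higher in 6 of 7 mice).

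Genes of settled macrophages were lower in the Cx3cr1+ macrophages, 12 of 14 measured (median -1.51), and none was higher. The folate receptor Folr2 was at 61.4 to 148 CPM against 328 to 587 in Cd163-positive cells (-2.21 ± 0.16, SE), Fcna, a ficolin, at 14.5 to 45.6 against 152 to 279 (-3.09 ± 0.21, SE) and the mannose receptor Mrc1 at 1063 to 1808 against 2104 to 4313 (-1.11 ± 0.09, SE), each lower in 7 of 7 mice. Lyve1 was at most 2.50 CPM in the Cx3cr1+ macrophages and at 27.9 to 233 CPM in the Cd163-positive cells. Ccl8, higher after both cytokines, was at 1092 to 7794 CPM against 5732 to 14263 (-1.92 ± 0.19, SE). Hpgds (-0.11 ± 0.14, SE, edgeR adjusted p = 0.67) and Ms4a7 (-0.07 ± 0.11, SE, adjusted p = 0.76) did not pass, with estimates near 0. Ribosomal genes were higher for 13 of 14 (median 0.49), and 7 of 14 immediate early and heat shock genes, which answer handling of the tissue, were lower. Of 8 monocyte-type genes 1 was higher, Ccr2, and none was lower, a share near the 14.2% called over all genes.

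Arg1-high macrophages had at least 10 Arg1 UMIs, fewer than 2 of Cx3cr1 and none of Cd163 (5123 cells), and 12 mice entered. Of 11652 genes 3510 differed (30.1%), 1552 higher (13.3%) and 1958 lower (16.8%) in the Cx3cr1+ macrophages. The direction shares depend on scaling, since 44.2% of the calls were higher with TMM and 52.3% with RLE factors. Median depths of the Arg1-high cells were 7181, 8022 and 4168 UMIs. The 3 erythroid genes tested were lower in the Cx3cr1+ macrophages, where Hba-a1 and Hbb-bt were at 0 and Hbb-bs was at most 1.39 CPM, against 0 to 107, 0 to 29.3 and 0 to 155 CPM in Arg1-high cells. The collagens Col1a1 and Col1a2 were lower too (-1.11 and -1.09), 2 of 7 fibroblast genes, and the part of these cells' RNA was not tested.

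Hpgds and Ms4a7 were given as markers of the Cx3cr1+ macrophages, with earlier results of these data known. The gates also set Cx3cr1 and Arg1 apart, and genes that accompany these from cell to cell differ by construction. The marker values against Arg1-high cells are therefore descriptions. Hpgds was at 91.2 to 318 CPM against 31.2 to 79.1, higher in 12 of 12 mice (log2 fold change 1.79 ± 0.09, SE), and Ms4a7 at 656 to 1154 against 304 to 660 (1.01 ± 0.07, SE). The orphan receptor Gpr34 (1.69 ± 0.17, SE) was also higher in 12 of 12 mice, and in all 11 of 16 identity genes were higher and 2 lower. Genes of settled macrophages went both ways, 6 of 13 higher and 4 lower (median -0.14). The selenium carrier Selenop was among the higher ones (1.16 ± 0.07, SE, in 12 of 12 mice), and Ccl24, Clec4n, F13a1 and Pf4 were lower. Monocyte-type genes were lower for 8 of 12, among them Ccr2, and higher for none, where 16.8% of all genes were lower. Every one of 20 cell cycle genes was higher (median 1.31), with Mki67 at 57.9 to 176 against 21.5 to 53.9 CPM (1.64 ± 0.13, SE).

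Genes of hypoxia and sugar breakdown were lower for 17 of 17 measured (median -1.26). Pgk1, the phosphoglycerate kinase of glycolysis, was at 171 to 283 CPM against 548 to 735, lower in 12 of 12 mice (-1.54 ± 0.07, SE, edgeR adjusted p = 9.3e-16). Inflammatory genes were lower for 10 of 16 and higher for 3, led by the neutrophil attractant Cxcl3 at 29.6 to 202 against 368 to 2020 CPM (-2.94 ± 0.14, SE). Inhba, a subunit of activin, was at 17.8 to 89.3 against 206 to 914 CPM (-3.33 ± 0.17, SE), and Spp1 at 199 to 1714 against 876 to 5449 (-2.04 ± 0.11, SE). Of 10 MHC class II genes 1 passed, and H2-Aa gave -0.06 ± 0.09 (SE, edgeR adjusted p = 0.63).

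**Figure D5:**
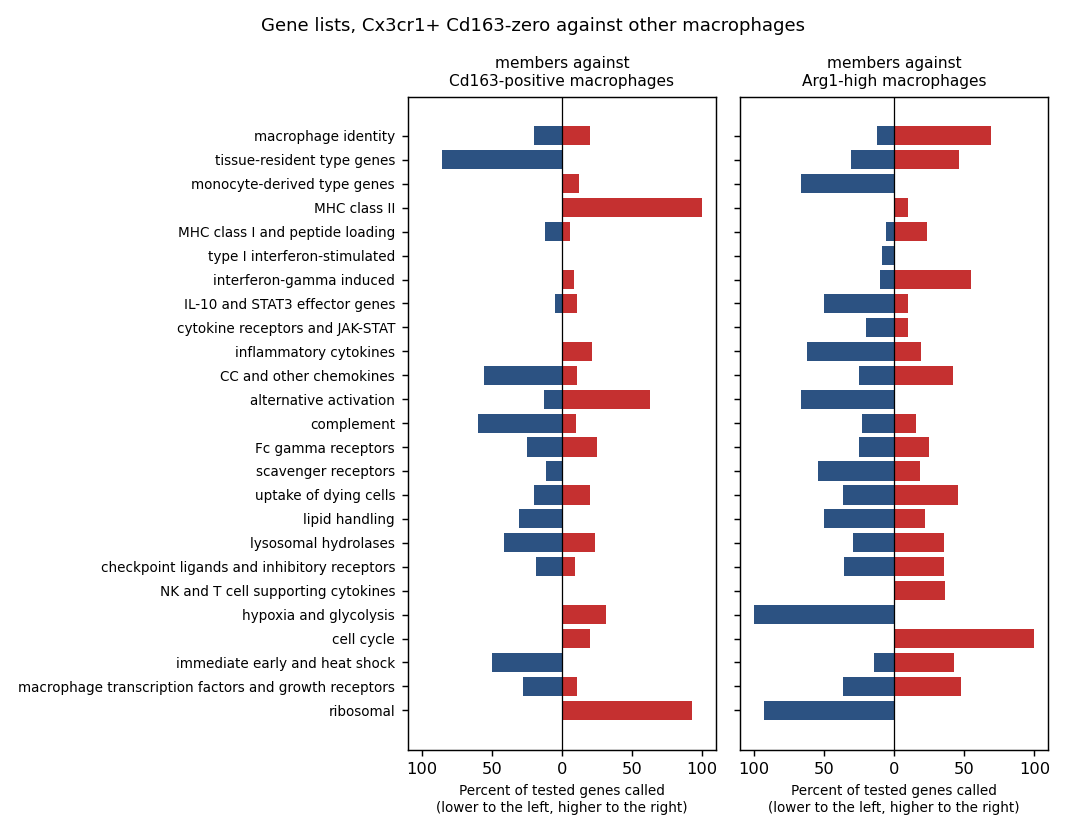
Percent of the tested genes of each list that were higher (red, to the right) or lower (blue, to the left) in the Cx3cr1+ macrophages without Cd163 than in Cd163-positive macrophages (7 mice) and in Arg1-high macrophages (12 mice), by edgeR at an adjusted p under 0.05 with the mouse as a block. MHC class II genes were higher for 6 of 6 measured against Cd163-positive cells and for 1 of 10 against Arg1-high cells.

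Whether a treatment acted otherwise on these cells than on Cd163-positive macrophages was tested as an interaction over the 7 mice. For mono-IL10 against PBS 11 of 5503 genes differed in effect (0.2%), 4 with the more positive effect in the Cx3cr1+ macrophages (0.0727%) and 7 with the more negative (0.127%). For IL10/2-Trikine against PBS none did by edgeR (0.0%), 210 genes had an unadjusted p under 0.05, and DESeq2 also called 0. Between the cytokines 5 genes did (0.0909%), 2 more positive (0.0363%) and 3 more negative (0.0545%). With 2 or 3 mice per treatment, a p that misses the threshold does not show that the effects were alike.

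Ifitm1, an interferon-induced membrane protein, was at 90.3 to 231 CPM in PBS, 257 to 707 in mono-IL10 and 292 to 435 in IL10/2-Trikine mice in the Cx3cr1+ macrophages, and at 34.8 to 283, 28.1 to 72.2 and 230 to 303 in the Cd163-positive cells (interaction for mono-IL10, edgeR adjusted p = 0.0024). Acod1, which makes itaconate, was at 104 to 183 CPM in PBS and 73.9 to 167 in mono-IL10 mice in the Cx3cr1+ macrophages, against 83.6 to 220 and 0 to 24.98 in the Cd163-positive cells. Pf4, a platelet-type chemokine, was at 1589 to 2087 and 1282 to 1344 CPM in the former and at 2916 to 3524 and 4812 to 6255 in the latter, so the estimates took opposite directions. The remaining genes included Col4a1, Col4a2, Postn, Rgs5 and Serpinh1, which are genes of fibroblasts and vessel wall cells.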

How the data were processed

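CD45+ tumor cells of 3 pools of 5 hashtagged mice were profiled with a 10x 5′ kit. The deposited values are raw UMI counts per gene and barcode, which the authors made with Cell Ranger and its cell filter on GRCm39. The submitters' notes also name Seurat 5.1.0 and DESeq2 1.46.0. The deposited annotation held 7858 cells of a group with no sample, which were not used. The 34187 genes and 5 hashtags were read as deposited. Median depth per deposited barcode was 6497.5, 8078 and 5198 UMIs in PBS, mono-IL10 and IL10/2-Trikine, and no barcode sequence was gated in more than 1 library, although 15, 24 and 4 gated cells had a sequence also present among all barcodes of another library (PBS and mono-IL10, PBS and IL10/2-Trikine, and both cytokines). No doublet caller was run: single-hashtag calls, 0 lymphocyte UMIs and an alternative without the top 5% of UMIs stood in its place. They do not exclude doublets, since 552 of the 1741 gated cells reached a hashtag share of 0.9.

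Counts of the gated cells were summed per mouse (at least 20 cells) and tested with edgeR 4.0.16 (R 4.3.3, filterByExpr, TMM, quasi-likelihood F test, all 3 groups in 1 fit, mouse as block between cell sets, adjusted p under 0.05). Cell cycle shares were compared by exact permutation of mice between groups (Python 3.11.15, numpy 2.4.6). On simulated counts for mono-IL10 against PBS (7543 genes), 16.5% of genes changed by a log2 value of 1 and 87.6% of those changed by 2 were recovered, and 5.61% of calls were false. The simulation gave every gene the same fixed spread between mice, so these rates need not hold for the reported tests. Alternatives were RLE factors, DESeq2 1.42.0, no filter, thinning to 3000 UMIs, stricter gates and leaving out mice. Named genes were, per comparison, the 10 higher and 10 lower non-overlapping called genes of largest fold with at least 50 CPM, and up to 4 called genes per list. Where none was called, the 2 of highest level were taken. Il10ra, Il2rb and the genes of the promoter display were added for their role. The members and lists were chosen with earlier results of these data known. Some genes are not reported here.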

Additional observations from a re-analysis of the deposited data

Results flagged for a closer look

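Within groups of 4 or 5 mice, 11 of 234 sets of values held a mouse set apart by Dixon's test at the 95% level, where chance gives about 1 in 20. Most were in mono-IL10. Mouse 1 of that group was highest for Fcgr4 (446 CPM), S100a6 (343 CPM) and Ear2 (7.63 CPM), mouse 2 for Gzma (5.07 CPM) and the summed endothelial genes (178.0 CPM), and mouse 3 for Ecm1 (491 CPM) and Fcer1g (4549 CPM). Mouse 4 was lowest for Fn1 (1023 CPM). In PBS, mouse 4 was lowest for Ctsb (2837 CPM) and mouse 2 highest for Fcer1g (3542 CPM) and Npc2 (1039 CPM).

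Among genes tested for an effect that differs between the Cx3cr1+ macrophages and the Cd163-positive macrophages, 16 results passed with edgeR. For mono-IL10 against PBS the adjusted p was 0.00244 for Ifitm1, Col4a2 and Rgs5, 0.00296 for Postn, 0.0120 for Acod1, 0.0122 for Col4a1 and Pf4, 0.0135 for Serpinh1, 0.0199 for G0s2, 0.0272 for Ebf1 and 0.0319 for Pltp. Between the cytokines it was 0.00775 for Postn and 0.0399 for Acod1, Clec7a, Ifitm1 and Serpinh1. Several of these calls rest on groups at 0 and on 1 mouse. In the 2 mono-IL10 mice Rgs5 was at 3.12 and 433 CPM in the Cd163-positive cells, Col4a2 at 0 and 134, Postn at 0 and 77.4, Serpinh1 at 0 and 98.0 and Col4a1 at 3.12 and 160 CPM, while in their Cx3cr1+ macrophages Rgs5, Col4a2, Postn and Ebf1 were at 0. Clec7a, a receptor for fungal glucans, was at 633 to 717 CPM in mono-IL10 and 419 to 571 in IL10/2-Trikine mice in the Cx3cr1+ macrophages, against 112 to 155 and 323 to 428 in the Cd163-positive cells. Fibroblast RNA summed to 24.7 to 775 CPM in PBS, 7.33 to 19.2 in mono-IL10 and 39.1 to 2413 in IL10/2-Trikine mice within the Cx3cr1+ macrophages, and its part in the values of Col4a1, Col4a2, Postn, Rgs5 and Serpinh1 was not tested.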

How the results depend on the processing

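Counts of called genes are given in the order mono-IL10 against PBS, IL10/2-Trikine against PBS and IL10/2-Trikine against mono-IL10, where the reported values are 439, 218 and 139. DESeq2 gave 434, 229 and 221, no low-count filter 660, 368 and 443, thinning to 3000 UMIs, which also lost IL10/2-Trikine mouse 2, 202, 91 and 37, and dropping every cell with a Krt8 or Krt18 UMI 415, 143 and 70. A hashtag share of at least 0.9 (7 mice, 1 of mono-IL10) left 16, 9 and 4, and at least 3 Cx3cr1 UMIs (8 mice, 1 of IL10/2-Trikine) 95, 8 and 7. The lone mouse is assumed to vary like those of the other groups. The tumor RNA term gave 309, 0 and 1, and all 15 mice, also added after the data were seen, 380, 209 and 182. Leaving out 1 mouse at a time gave 270 to 457, 96 to 227 and 49 to 164. The low counts came without mono-IL10 mouse 4 (270 and 81), and without IL10/2-Trikine mouse 4 (96 and 61), mouse 2 (132 and 49) and mouse 1 (105). Without the low-count filter 36.5% of the mono-IL10 calls were higher, against 63.6%, as were 53.0% against 32.4% between the cytokines and 39.9% for IL10/2-Trikine against PBS, where the reported split is even. Of the 73 named genes called for mono-IL10 against PBS 51 kept the call whichever mouse was left out, as did 14 of 43 for IL10/2-Trikine against PBS and 12 of 27 between the cytokines. With at least 3 Cx3cr1 UMIs the log2 value for Gzma, IL10/2-Trikine against PBS, reversed to -6.03, which rests on that 1 IL10/2-Trikine mouse. For Socs3, IL10/2-Trikine against PBS, near 0 as reported, it was 0.066 after thinning, 0.015 without Krt8 or Krt18, 0.23 with at least 3 Cx3cr1 UMIs (the same single mouse), 0.36 with the tumor RNA term and -0.25 to 0.061 with a mouse left out.

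Against Cd163-positive cells thinning gave 335 calls. It also left out PBS mouse 2, with 19 Cd163-positive cells, and IL10/2-Trikine mouse 2, with 12 gated and 16 Cd163-positive cells. Without the replicate block of mice 556 genes passed for Cd163-positive and 2609 for Arg1-high cells. Leaving out 1 mouse gave 601 to 774 and 3028 to 3556. Hashtag numbers name mice within a pool and pair nothing between treatments. Interaction calls (11, 0 and 5) were 49, 12 and 30 without the filter, and 6 to 16, 0 to 1 and 1 to 6 with a PBS mouse left out. For mono-IL10 against PBS 13 passed after thinning. That fit holds 2 mice of each cytokine, so leaving out 1 of them leaves an arm of 1 mouse. Thinning did the same for IL10/2-Trikine, where only mouse 1 kept 20 cells of both kinds. Counts for such arms are not given.

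Differences in the cell cycle share were -5.63, -13.1 and -7.46 points unthinned, and -11.2, 5.26 and 16.5 with at least 1 UMI, where no call was kept. Leaving out 1 mouse gave -15.5 to -10.8, -0.668 to 4.83 and 12.6 to 17.6, with -0.668 without IL10/2-Trikine mouse 2, whose share rests on 12 cells. Where a value changed, the cause was not tested unless stated. One library per treatment, 13 to 47 cells per mono-IL10 mouse and the shallower IL10/2-Trikine cells limit what could be detected.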

Other observations

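Against the other macrophages of the same tumors, further groups of genes differed in the Cx3cr1+ macrophages without Cd163. Over all genes 14.2% were called against Cd163-positive cells, 7.32% higher and 6.91% lower. Against Arg1-high cells 30.1% were called, 13.3% higher and 16.8% lower. Alternative activation genes were higher for 5 of 8 and lower for 1 against Cd163-positive cells, and lower for 8 of 12 with none higher against Arg1-high cells, where Mmp12, a macrophage elastase, gave a log2 fold change of -2.61. Genes induced by interferon gamma were higher for 11 of 20 and lower for 2 against Arg1-high cells, among them Cxcl10 (1.27) and the costimulatory receptor Cd40 (0.60), while the nitric oxide synthase Nos2 was lower (-3.84). Complement genes were lower for 6 of 10 and higher for 1 against Cd163-positive cells.

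The chemokine Ccl6 was lower in the Cx3cr1+ macrophages than in both other sets, by log2 fold changes of -1.83 from Cd163-positive and -2.30 from Arg1-high cells. Ccl8 was lower than in Cd163-positive cells (-1.92) and higher than in Arg1-high cells (1.56), in 7 of 7 and 12 of 12 mice. The heat shock gene Hspa1a was lower than in Cd163-positive cells (-1.004) and higher than in Arg1-high cells (1.60), and ribosomal genes were lower for 13 of 14 against Arg1-high cells (median -0.30).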
